A study of Mus musculus with 3 samples.

Results

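A set of 9 genes that platelets and megakaryocytes use were examined as a group in the chromatin of blood stem cells: Itga2b, Gp1ba, Gp9, Gp5, Gp6, Treml1, Pf4, Ppbp and Nfe2. They were chosen by name, with earlier results of these data known. They are 9 of the 31208 genes of the annotation used, and all 9 were measured. Long-term hematopoietic stem cells (LT-HSCs) came from the bone marrow of wild-type C57BL/6J female mice at 24 months of age, enriched for c-Kit and sorted for Sca-1, c-Kit and CD150 without lineage markers, CD34 or CD48. DOGMA-seq, which reads open chromatin, RNA and oligonucleotide-tagged antibodies from the same cells, gave 3 libraries from 1 pool of cells. There was no younger group and no replicate pool here, so groups of cells were compared as descriptions, and every interval covers counting error only.

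Megakaryocytes are the large marrow cells that shed platelets. Their surface receptors bind the vessel wall and fibrinogen, their granules store chemokines, and NF-E2 drives the last steps of platelet release. Some HSCs are biased towards this lineage and already transcribe parts of its program, which is why these genes are of interest in stem cells. The sort did not use any of the 9 gene products.

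The antibody table held 3724 barcodes, of which 3629 had at least 10 tags and were kept. They held 38498362 nuclear fragments, with a median of 10287 per cell, 1978 RNA UMIs and 29 antibody tags. An excess of sites covered by 3 or more fragments, a sign of doublets, was seen in 7.27% of the kept cells. Markers of HSCs were mostly open, with 9 of 12 genes above the median protein-coding gene, while 3 of 12 erythroid, 4 of 12 myeloid, 2 of 10 B cell, 4 of 10 T cell and 1 of 8 mast cell genes were. The part of cells other than HSCs in the results below was not tested.

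The strongest open site of the group lay inside Itga2b, across intron 4, and is shown because it held more insertions than any other window of the 9 genes. The sequence is mm10 chr11:102467077-102467376, minus strand, read 5′ to 3′ from the genome, with the ends of exons 4 and 5 of 30 in capitals and the intron between them in lower case.
Itga2b site: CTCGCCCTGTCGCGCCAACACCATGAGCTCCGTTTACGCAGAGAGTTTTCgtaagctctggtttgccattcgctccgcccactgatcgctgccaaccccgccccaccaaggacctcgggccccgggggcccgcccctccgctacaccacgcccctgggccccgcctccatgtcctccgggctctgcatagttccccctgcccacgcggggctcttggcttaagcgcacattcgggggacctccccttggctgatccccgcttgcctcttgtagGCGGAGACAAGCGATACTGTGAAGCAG
Of its 300 bases, 77 were exon and 223 intron, and 66% were G or C.

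Promoter sequences for 8 of the 9 genes, all but Nfe2, came from RefSeq (mm10, the same assembly as GRCm38). Those of 4 genes are shown, as the 150 bases before the start, because they contrast receptor genes that carry GATA letters with the chemokine neighbours Pf4 and Ppbp, of which 1 was open and 1 was not. Capitals mark GATA letters (AGATAA or, with another last base, AGATAG, and the same with T as the first base) and ETS letters (AGGAAG or, with another first base, CGGAAG) on either strand. The positions are chr11:70638972-70639121 for Gp1ba, chr16:30310782-30310931 for Gp5, chr5:90772285-90772434 for Pf4 and chr5:90768368-90768517 for Ppbp, with Gp5 on the minus strand and the others on the plus strand.
Gp1ba: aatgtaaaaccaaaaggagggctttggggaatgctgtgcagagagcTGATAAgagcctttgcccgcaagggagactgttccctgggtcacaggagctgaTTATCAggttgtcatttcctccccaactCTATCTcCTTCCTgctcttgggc
Gp5: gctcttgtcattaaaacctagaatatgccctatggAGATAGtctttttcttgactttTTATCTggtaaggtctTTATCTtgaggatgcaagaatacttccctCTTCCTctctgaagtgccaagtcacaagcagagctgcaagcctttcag
Pf4: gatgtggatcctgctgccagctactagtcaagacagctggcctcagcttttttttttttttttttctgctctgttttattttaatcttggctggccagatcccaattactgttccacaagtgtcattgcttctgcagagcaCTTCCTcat
Ppbp: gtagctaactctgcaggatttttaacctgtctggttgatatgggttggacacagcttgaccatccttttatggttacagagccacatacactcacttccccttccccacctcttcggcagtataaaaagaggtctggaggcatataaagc
Over the 250 bases before the start, 3 of 8 promoters (Gp1ba, Gp5 and Gp6) held GATA letters, against 23.1% of 20148 protein-coding promoters of that length. ETS letters were in 5 of 8, against 41.5%. RUNX letters (TGTGGT or, with C in the middle, TGCGGT) were in 1 of 8, in Gp9, against 17.6%, and NF-E2 letters (TGAGTCA, which is its own reverse complement but for the middle base) in 0 of 8, against 4.05%. Gp6, which was nearly unread, held GATA letters, and Pf4, which was open, held none. The Itga2b site held none of the 4 sets of letters.

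Accessibility was read over each gene and 2 kb upstream (the gene region) and over 1 kb on each side of the transcription start (the promoter), as fragments per kb and per 1000000 nuclear fragments. In all, 7 of the 9 genes lay above the median protein-coding gene in the gene region, and Ppbp and Gp6 lay well below it. The group's median sat at percentile 90.9 of protein-coding genes in the gene region but at 53.7 at the promoter.

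Itga2b encodes integrin αIIb, which pairs with integrin β3 (CD61) as the platelet fibrinogen receptor. Its gene region held 4944 fragments, a level of 6.82 (95% Poisson interval 6.63 to 7.01), which is 8.30 times the median protein-coding gene. A fragment was read in 70.3% of cells (exact binomial interval 68.8 to 71.8). Itga2b and Nfe2 together gave 69.0% of the 12302 fragments over the 9 genes, so summed values follow mostly these genes.

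Gp1ba, Gp9 and Gp5 encode subunits of the GPIb-IX-V complex, which binds von Willebrand factor. Their gene region levels were 4.54 (4.25 to 4.86) for Gp1ba, 6.63 (6.22 to 7.07) for Gp9 and 4.19 (3.91 to 4.49) for Gp5. Gp9 was above the other two, whose intervals overlapped. Each was read in 17.9 to 20.4% of cells. Part of the Gp5 region overlaps Atp13a3 and part of the Gp9 region overlaps Gm43904, so those reads cannot be assigned to 1 gene.

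Gp6, the platelet collagen receptor, held 34 fragments over 35.8 kb. Its level of 0.025 (0.017 to 0.034) was at percentile 12.1, and 0.882% of cells (0.604 to 1.24) held a fragment. Treml1, a receptor kept in platelet granules, was between these and the open genes, at 1.06 (0.956 to 1.17) and percentile 57.0. The collagen receptor was thus the least read of the 9, and Treml1 was 1.29 times the median gene.

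Pf4 and Ppbp encode chemokines stored in platelet granules and lie next to each other on chromosome 5, with starts 3917 bp apart. Pf4 held 733 fragments, a level of 6.46 (6.00 to 6.94), and Ppbp held 40, a level of 0.293 (0.209 to 0.399). At the promoters the counts were 716 and 32. The neighbours thus differed 22.0-fold in the gene region and 22.4-fold at the promoter, with intervals far apart.

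Nfe2 encodes the larger subunit of NF-E2, the transcription factor of platelet release. It had the highest gene region level of the 9, 7.56 (7.31 to 7.81), and was read in 58.9% of cells (57.3 to 60.5). At its promoter the level was 6.37 (5.82 to 6.96), which is 1.22 times the median protein-coding promoter. That value depends on the annotated start: with the 5′ end of the whole gene as the start, chosen after seeing the data, it was 5.54 times the median.

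**Figure D1:**
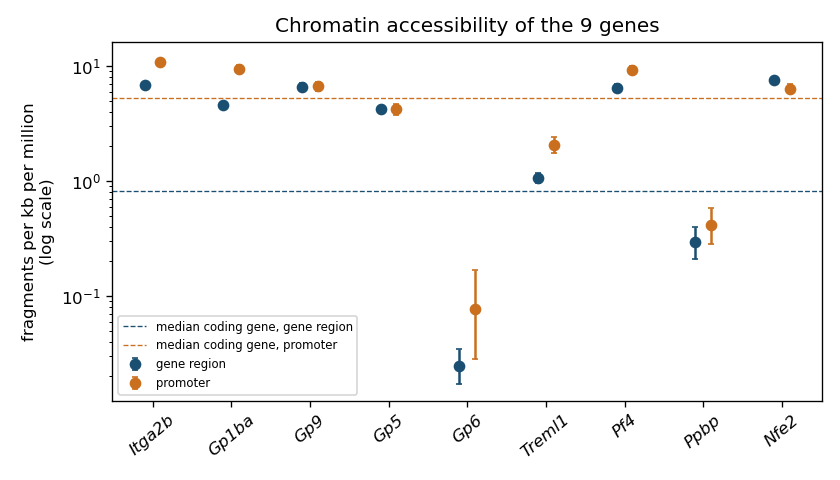
Level of each of the 9 genes in fragments per kb and per 1000000 nuclear fragments (log axis), for the gene region and the promoter, with exact 95% Poisson intervals over 3629 cells. Dashed lines mark the median protein-coding gene. In all, 7 genes lie above the gene-region line, and Gp6 and Ppbp lie below both lines.

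Beside other lists, the 9 genes stood high per kb of gene region but not at the promoter. A level per kb is higher where a short region is mostly promoter, and the gene regions of the 9 genes were short, with a median of 5.09 kb against 19.4 kb for protein-coding genes. The promoter held 97.7% of the gene region fragments of Pf4, 84.3% of those of Gp1ba and 80% of those of Ppbp. It held 54.4% for Gp9, 42.1% for Treml1, 39.3% for Gp5, 17.6% for Gp6, 16.9% for Itga2b and 13.8% for Nfe2. The gene region levels of Itga2b and Nfe2 thus came mostly from outside the promoter. Gp1ba, at percentile 90.9 by gene region, was at 61.8 by promoter. The median lengths of the platelet lists were 62.3 kb for adhesion receptors and adaptors, 8.31 kb for agonist and thrombopoietin receptors, 30.9 kb for granule and cytoskeleton genes and 57.1 kb for transcription factors, so the gene region percentiles of lists of unlike length are not on the same footing. In the gene region the list medians were at percentile 63.7 for 12 adhesion receptors and adaptors, 77.0 for 10 agonist and thrombopoietin receptors, 65.1 for 16 granule and cytoskeleton genes and 69.5 for 13 megakaryocyte transcription factors. Those for HSC, erythroid, myeloid, B cell, T cell and mast cell markers were 63.5, 36.5, 35.6, 38.7, 41.5 and 28.6. At the promoter the median of the 9 genes, at percentile 53.7, was below that of HSC markers (54.7) and of megakaryocyte transcription factors (75.6), and the other platelet lists were at 47.8, 49.7 and 48.5. Of the wider platelet genes, the highest gene region levels per kb were those of Mafg (10.3), F2rl3 (8.90) and Gata2 (8.61), and the lowest were those of Cd226 (0.187), Itga2 (0.322) and Rab27b (0.339). Mafg is a small Maf partner of NF-E2, F2rl3 a thrombin receptor and Itga2 the α2 subunit of a collagen-binding integrin. Vwf and Itgb3, the genes of von Willebrand factor and of CD61, had gene region levels of 1.53 and 1.51, and Gata1 had 1.29, below the 6 members with the highest levels. At the promoter the order differed: Itgb3 had 11.8, above all 9 members, Vwf 4.96 and Gata1 3.35.

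**Figure D2:**
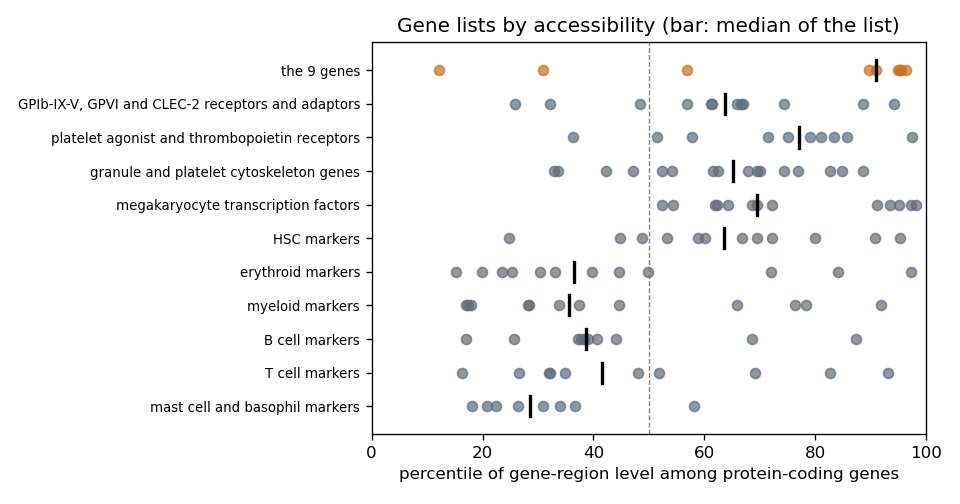
Percentile of the gene-region level among 21910 protein-coding genes (x axis) for every gene of each list (points) with the list median (bar). The 9 genes have their median at 90.9 with 2 genes far to the left, while lineage markers other than HSC markers have medians of at most 41.5.

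Where in the genes the fragments lay differed from gene to gene. In Itga2b the intron 4 site, 2657 bp inside the gene, held 2904 insertions in 300 bp and was read in 38.1% of cells (36.5 to 39.7). A window 343 bp upstream of the Itga2b start used here held 898 insertions, and 1 over exon 27 held 1052. The upstream window contained the farthest annotated start of Itga2b, at 102470122. In Nfe2 the strongest window, mm10 chr15:103258372-103258671, was 3082 bp upstream of the start used here and contained the farthest annotated start of the gene, at 103258403. It held 2635 insertions and was read in 35.6% of cells (34.0 to 37.2), while the window at the start used here held 534. Among the strongest windows within 5 kb of each start, these sites were at percentile 97.6 and 95.8 of protein-coding genes.

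The other members differed in where they were read. The strongest windows of Pf4 and Gp1ba were centred 59 bp downstream and 71 bp upstream of the start, with 637 and 838 insertions. Gp9 had windows of similar size at its start (420 insertions) and 1981 bp upstream (446), the second 52 bp from the start of Gm43904. The strongest Gp5 window (289 insertions) lay in its coding exon, 1815 bp downstream, and that of Treml1 (105) in an intron, 3319 bp downstream. In Ppbp the strongest window within the gene and its upstream flank held 17 insertions, and in Gp6 6.

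**Figure D3:**
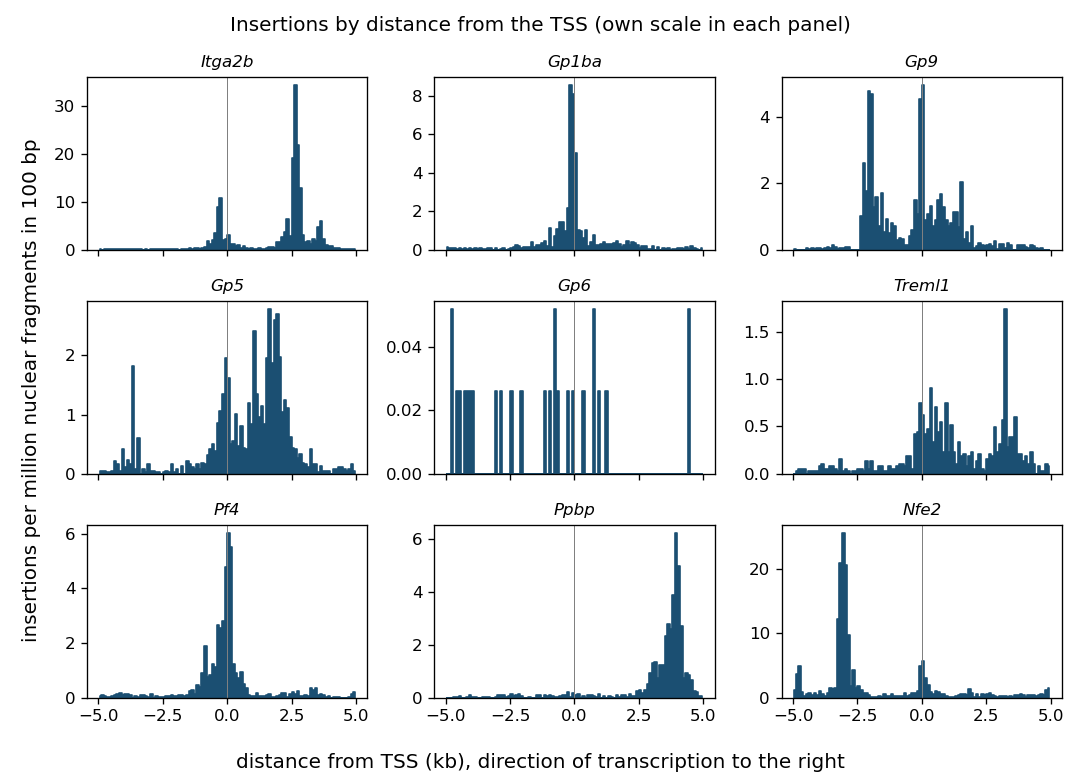
Insertions per 1000000 nuclear fragments in 100 bp steps by distance from the transcription start (x axis, kb) for each gene, with its own scale in each panel. Itga2b and Nfe2 peak 2657 bp downstream and 3082 bp upstream, Pf4 and Gp1ba at the start, and the peak at the right of the Ppbp panel is the Pf4 promoter.

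Short fragments, under 150 bp, come from DNA between nucleosomes. They made up 72.4% of the fragments over the Itga2b site and 74.7% over the Nfe2 site. Over all protein-coding promoters the share was 43.0%. At the promoters of Gp1ba (41.5%, interval 37.9 to 45.2) and Nfe2 (41.3%, 37.0 to 45.8) the interval held that value, and at Itga2b (39.6%, 36.2 to 42.98) and Pf4 (38.8%, 35.2 to 42.5) it ended just below it. It was lower again at Gp9 (35.6%, 31.5 to 39.9), Gp5 (22.9%, 18.4 to 27.9) and Treml1 (22.6%, 16.4 to 29.9). In Ppbp 1 of 32 and in Gp6 0 of 6 fragments were short. The site windows are 300 bp and the promoters 2 kb wide, so the site shares and promoter shares are not on the same footing.

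Reads over these genes were sparse in single cells. A median of 2 of the 9 genes had a fragment per cell, the highest number was 7, and 214 cells had none. The share of cells read depended on depth: at the Itga2b site it was 25.3% in the 10% of cells with the fewest fragments and 50.1% in the 10% with the most, and at the Nfe2 site 23.1% and 50.1%. A cell without a fragment is therefore not a cell with a closed site.

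Genes of the group were read together about as often as depth gave. Within 10 groups of cells by depth, 25 pairs had at least 20 cells expected with both genes, and the median ratio of observed to expected was 1.0 (range 0.887 to 1.25). At promoters it was 1.01 over 18 pairs. The Itga2b and Nfe2 sites were both read in 490 cells against 503 expected, a ratio of 0.974 (0.890 to 1.06), and at least 1 of them was read in 60.2% of cells. The other lists had medians of 0.988 to 1.03 in the gene region.

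The study used the antibodies to CD61, CD274 (PD-L1), CD357 (GITR) and CD27 to tell apart HSCs biased to platelets from multilineage HSCs. Cells above the median count of each antibody were set against the others, which asks whether the surface protein goes with openness of the platelet genes. The median cell had 3 tags of CD61, 19 of CD274, 3 of CD357 and 1 of CD27. Cells with high counts of 1 antibody also had more tags in all (33 against 25 for CD61, 39 against 22 for CD274) and more often an excess of overlaps (9.91 against 4.96% for CD61, 9.55 against 5.21% for CD274). The part of these in the ratios was not tested.

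In the gene region 7 of the 9 genes had at least 100 fragments over both groups, and 0 of their 28 ratios passed 1.3-fold. Over all genes with that many fragments, 1.96% passed it when split by CD61, 2.63% by CD274, 2.19% by CD357 and 3.06% by CD27. At promoters also 0 of 28 passed, against 2.5%, 3.05%, 2.63% and 3.96%. Log2 ratios ran from −0.23 to 0.15 in the gene region and from −0.27 to 0.25 at the promoter. With a minimum of 20 fragments, which lets in Ppbp and Gp6, 1 of 36 passed, Gp6 with CD27 (5 and 29 fragments, −0.75, −2.59 to 0.53), where 8.7% of all values with that many fragments did.

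CD61 is integrin β3, the partner of the Itga2b product. Itga2b had 2405 fragments (level 6.98) in cells with more CD61 and 2539 (6.67) in the others, a log2 ratio of 0.07 (−0.02 to 0.15). The levels thus differed by less than the counting error, and the whole interval lies within 1.3-fold. Itgb3 itself, the gene of the antigen, had a log2 ratio of 0.01 (−0.09 to 0.10).

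Pf4 went the other way. Over the 4 bins of CD61 counts from 0 to 1, 2 to 3, 4 to 5 and 6 to 56, its level was 7.51, 6.61, 5.94 and 5.88. Cells with more CD61 had 319 fragments (5.91) and the others 414 (6.95), a log2 ratio of −0.23 (−0.45 to −0.02). The interval leaves out 0 narrowly, and this was 1 of 2 such intervals among the 28 gene region values, where 8.64% of the values over all genes had one. At promoters it was 1 of 28, where 7.22% did. This was Pf4 with CD61 from mostly the same fragments, since 97.7% of its gene region fragments lie at the promoter, so it is no second observation. These counts are near or below the share over all genes and are not a result about the 9 genes. The Pf4 ratio stayed below 0 under each of 11 alternatives, from −0.18 (cells thinned to 6000 fragments) to −0.47 (at least 50 tags). The alternatives draw on the same cells and fragments and are given without intervals, so the kept sign is no support. Gp1ba had the highest ratio, 0.15 (−0.05 to 0.35).

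Nfe2 gave the second, with CD274. Its gene region held 1795 fragments (7.91) in cells with more CD274 and 1752 (7.23) in the others, a log2 ratio of 0.13 (0.03 to 0.23). In the bins of 0 to 12, 13 to 18, 19 to 26 and 27 to 110 counts its level was 7.32, 7.25, 7.54 and 8.06. Under the alternatives the ratio ran from 0.07 to 0.15, with the lowest values in thinned cells and with residual antibody counts. For CD274 the ratios of the other genes ran from −0.18 (Treml1, −0.48 to 0.12) to 0.12 (Pf4, −0.09 to 0.34).

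CD357 and CD27 gave ratios close to 0. Treml1 had the lowest value with CD357, −0.19 (−0.51 to 0.12), and Gp5 with CD27, −0.14 (−0.38 to 0.10). Pf4 was the highest with both, at 0.12 (−0.10 to 0.33) and 0.11 (−0.14 to 0.35). All of these intervals hold 0.

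Summed over the 9 genes, the log2 ratio by CD61 was 0.05 (−0.01 to 0.10), by CD274 0.06 (0.01 to 0.11), by CD357 −0.0025 (−0.06 to 0.05) and by CD27 −0.02 (−0.08 to 0.04). The medians over the 7 genes were 0.05, 0.07, −0.02 and −0.02, against values within 0.002 of 0 for all genes. At promoters the sum by CD274 was 0.0071 (−0.09 to 0.10). Other lists summed by CD274 also had gene region intervals that leave out 0. These were myeloid markers (0.09, 0.02 to 0.16), adhesion receptors and adaptors (0.04, 0.01 to 0.07), erythroid markers (−0.10, −0.17 to −0.03) and megakaryocyte transcription factors (−0.05, −0.07 to −0.03). Such a sum is thus not particular to the 9 genes. Of 51 wider platelet genes, all with at least 100 fragments, 2 passed 1.3-fold with CD274, where 2.63% of all genes did, and 0 passed with each of the other antibodies. Gata1, the master factor of megakaryocytes and red cells, was lower in cells with more CD274 (406 against 626 fragments, −0.53, −0.71 to −0.35). Of 8 erythroid markers with enough fragments 1 was above 0 with CD274, their median was −0.13, and their part in the Gata1 value was not tested. Fcer1g, the adaptor of Gp6, was higher in those cells (114 against 88, 0.47, 0.05 to 0.89).

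**Figure D4:**
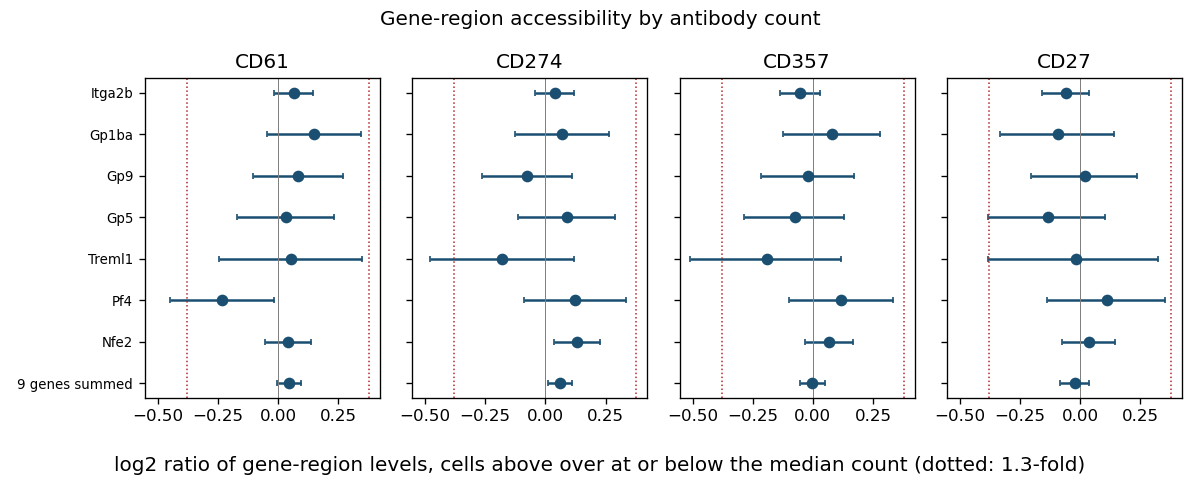
Log2 ratio of gene-region levels (x axis) in cells above over cells at or below the median count of each antibody, for the 7 genes with enough fragments and the sum, with exact 95% conditional binomial intervals. No point reaches the dotted 1.3-fold lines, though some intervals cross them. Pf4 with CD61 and Nfe2 with CD274 are the 2 genes whose intervals leave out 0.

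The site windows were looked at by antibody only after the gene values had been seen, over 19 windows and 76 values, of which 7 had intervals that leave out 0. Among the 64 values of windows with at least 100 fragments there were 6 such intervals, where 6.68% of the values over the strongest windows of coding genes with that many fragments had one, so their number is not a result about these genes. With CD274, 10 of the 19 windows were above 0. At the Itga2b site, cells with more CD274 had 948 fragments and the others 845, a log2 ratio of 0.26 (0.13 to 0.40). At the Nfe2 site they had 871 and 794, a ratio of 0.23 (0.09 to 0.37). Both were higher in the cells with more CD274, below 1.3-fold, although the gene region of Itga2b as a whole had 0.04 (−0.04 to 0.12). The 1665 fragments of the Nfe2 site are part of the 3547 of the Nfe2 gene region. Its ratio is therefore no second observation beside the Nfe2 gene region ratio with CD274.

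Among 4570 strongest windows of coding genes with at least 1000 fragments, the median CD274 ratio was 0.02. A ratio at or above that of the Itga2b site was found in 0.503% of them, and at or above that of the Nfe2 site in 1.01%. The same shares with CD61, CD357 and CD27 ran from 24.0 to 48.6%. Because the CD274 values were singled out from the 76 after these had been seen, their shares are a description and no support. In cells with at least 50 tags the ratios were 0.29 (−0.11 to 0.69) and 0.03 (−0.37 to 0.43), from 113 and 104 fragments for Itga2b and 102 and 112 for Nfe2. With CD61, CD357 and CD27 the ratios of both sites were between 0.01 and 0.07, and their intervals hold 0. The Pf4 start window followed CD274 (0.34, 0.06 to 0.61, from 247 and 209 fragments) and opposed CD61 (−0.30, −0.58 to −0.03, from 193 and 263), and these fragments are part of those behind the Pf4 gene region ratios. The other 3 intervals that leave out 0 were at the Treml1 intron window with CD274 (−0.74, −1.46 to −0.07), a second Itga2b window 3627 bp inside the gene with CD61 (0.32, 0.02 to 0.62) and the upstream Gp9 window with CD357 (0.35, 0.02 to 0.67). The Treml1 ratio was the largest of the 7 in size and rested on 29 and 52 fragments. Within the same genes, Itga2b windows 343 bp upstream and over exon 27 had CD274 ratios of −0.21 and −0.08, and an Nfe2 window 4832 bp upstream had −0.23, each with an interval that holds 0.

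**Figure D5:**
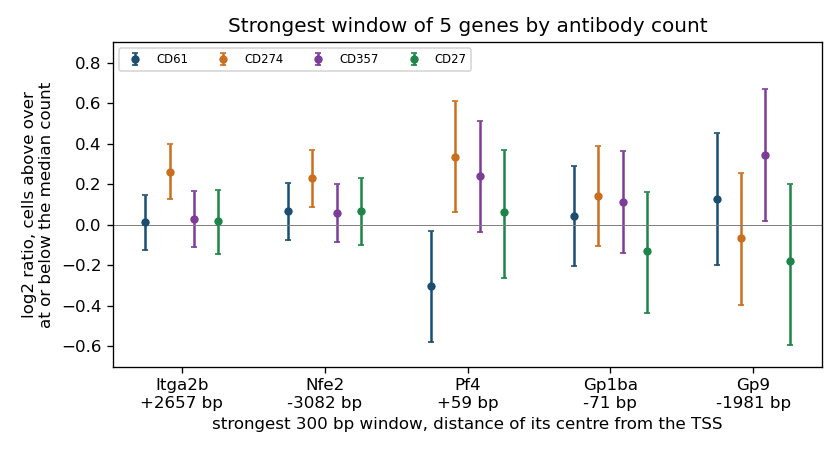
Log2 ratio (y axis) of fragments over the strongest 300 bp window of 5 genes, in cells above over cells at or below the median count of each antibody, with exact 95% conditional binomial intervals. The Itga2b and Nfe2 sites are above 0 with CD274, at 0.26 and 0.23, and near 0 with the other 3 antibodies. Pf4 with CD61 (−0.30) and CD274 (0.34) and the upstream Gp9 window with CD357 (0.35) also have intervals that leave out 0. This Gp9 window is centred 1981 bp upstream of Gp9 and 52 bp from the start of Gm43904. The window at the Gp9 start, not drawn, had −0.13 (−0.48 to 0.22) with CD357. Windows of the other genes are not drawn, among them that of Treml1 (−0.74 with CD274).

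Joint gates were set from the 4 antibodies: above the median for CD61 and CD274 and not above it for CD357 and CD27 (PLT gate, 342 cells), against the opposite (MUL gate, 61 cells). Summed over the 9 genes there were 1250 and 174 fragments, a log2 ratio of 0.28 (0.05 to 0.52). Summed in the same way over all genes of a list, HSC markers had 0.17 (0.05 to 0.29), granule and cytoskeleton genes 0.11 (−0.03 to 0.25) and megakaryocyte transcription factors 0.06 (−0.02 to 0.15). Adhesion receptors and adaptors had 0.01 (−0.12 to 0.15) and agonist and thrombopoietin receptors 0.03 (−0.20 to 0.27), and erythroid, myeloid, B cell, T cell and mast cell markers were between −0.16 and −0.03. Of these other lists HSC markers alone had an interval that leaves out 0, each of the intervals overlaps that of the 9 genes, and the differences between lists were not tested. At the promoter the sum over the 9 genes was 400 and 54 fragments, 0.32 (−0.08 to 0.77), with an interval that holds 0. There 1 member had enough fragments, Itga2b, with 91 and 17 fragments and −0.17 (−0.90 to 0.70). The genes with the most fragments were Itga2b (503 and 75 fragments, 0.18, −0.17 to 0.56) and Nfe2 (343 and 55, 0.07, −0.33 to 0.52). Gp9 had 105 and 10 fragments (0.77, −0.10 to 1.93) and Gp1ba 92 and 10 (0.58, −0.30 to 1.75), so both passed 1.3-fold, where 11.5% of 12948 genes passed it upwards. The PLT gate held 3540755 nuclear fragments and the MUL gate 600356, so Gp9 and Gp1ba met the minimum of 100 fragments through the PLT gate, where they were higher, and their passing is no support for a difference. The 4 genes that met it, Itga2b, Nfe2, Gp9 and Gp1ba, were all above 0 with a median of 0.38. Itga2b and Nfe2 were well past the minimum, and their intervals hold 0. As Gp9 and Gp1ba are among the 4, the count and the median are no support either. Gp5 (88 and 8), Pf4 (69 and 11) and Treml1 (40 and 4) did not meet it. The gates are made of the same cells as the splits above and are no independent evidence, and the MUL gate is small. An excess of overlaps was seen in 6.73% of PLT gate cells and 1.64% of MUL gate cells, and their median tags were 37 and 26. The part of these in the gate ratios was not tested. With at least 50 tags per cell the summed ratio was 0.60, and with gates on the centred log ratio of the tags it was 0.14. The value of 0.60 is given without an interval. That setting left fewer fragments, as at the Itga2b site by CD274, with 113 and 104 against 948 and 845. The gate counts at that setting are not given here, so 0.60 cannot be read as a larger difference.

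A further 3 splits were made after these values had been seen. In the 780 cells with a Gata1 fragment, Treml1 was higher (115 against 263 fragments, 0.41, 0.08 to 0.73), the only 1 of 7 genes past 1.3-fold, where 3.75% of all genes passed. At promoters Treml1 was also the 1 of 7 past it (48 and 111 fragments, 0.40, −0.13 to 0.89), where 4.44% passed, with an interval that holds 0 and fragments that are part of those of the gene region. Those cells also had an excess of overlaps in 16.4%, against 4.77% of the others. In cells with a fragment at the Vwf promoter, 0 of 7 genes passed in the gene region, where 7.22% of all genes did. At promoters 2 of 7 passed, both lower, where 5.32% of all genes were lower: Treml1 (10 and 149 fragments, −0.78, −1.94 to 0.07) and Nfe2 (37 and 454, −0.55, −1.09 to −0.08). That share counts 1 direction only, unlike the others in this paragraph, so it is not on the same footing. Cells with a Vwf promoter fragment had an excess of overlaps in 11.4%, against 6.83% of the others. In cells with more RNA UMIs per fragment, Treml1 had −0.30 (−0.61 to −0.0011) and 0 of 7 passed, where 2.15% did. At promoters 0 of 7 passed as well, where 2.7% did. Median nuclear fragments per cell were 11378.5 with and 10045 without a Gata1 fragment, and 11204 and 10209 for the Vwf promoter. With more RNA UMIs per fragment the median was 9058.5 against 11245, and an excess of overlaps was seen in 5.73% against 8.82%. The part of depth and overlaps in the ratios of these 3 splits was not tested.

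The genes whose levels moved most like the summed 9 over 16 groups of cells made by the 4 median splits (54 to 647 cells each) were Tet1 (Pearson r 0.802), Prkcb (0.801), Trnp1, Ssh2 and Erf (0.784). The summed level ranged from 3.01 to 3.68 over these groups. All groups share 1 library, the range is narrow, and the 5 were the highest of 12431 genes, so these values are a description.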

How the data were processed

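LT-HSCs of 1 pool were measured in ATAC, RNA and antibody libraries. Per the file headers and labels, the authors used Cell Ranger ARC 2.0.2 with its mm10 reference, which collapsed duplicate read pairs and shifted fragment ends for the transposase, and CITE-seq-Count (version not given in the sources used here) for antibodies. The files as deposited by the authors hold raw counts.

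Barcodes of the antibody table with at least 10 tags were kept, and doublets were not removed. Genes came from GENCODE M21, starting at the principal transcript. Fragments overlapping a region were counted and scaled by nuclear fragments. Levels have exact Poisson intervals, shares exact (Clopper-Pearson) binomial intervals at 95%, and log2 ratios, with 0.5 added to each count, exact conditional binomial intervals. A ratio was called past 1.3-fold with at least 100 fragments. With 1 pool, no test between cell groups was made. Named were all 9 genes, wider platelet genes past the fold with 200 fragments, the 3 highest and 3 lowest, the neighbours Gata1, Vwf and Itgb3, and the 5 most alike genes. The 9 genes and the lists were chosen with earlier results of these data known, and 1 gene of the lists is not reported here. RNA expression by gene was not analysed here. Python 3.11.15, numpy 2.4.6, pandas 2.3.3 and scipy 1.17.1 were used, checked on simulated data.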

Additional observations from a re-analysis of the deposited data

How the results depend on the processing

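Of 69 values for the summed levels, splits, gates, pairs and counts under alternatives, 57 stayed within the counting interval (or within 1.5 times the count) and 12 moved. No summed ratio passed 1.3-fold as reported, and those by CD61 and CD27 changed sign under some alternatives. With at least 50 tags, the summed level relative to the median gene was 4.24 (gene region, 4.04 as reported) and 0.998 (promoter, 1.05 as reported), and the summed log2 ratios were −0.024 for CD61, −0.11 for CD357, −0.14 for CD27 and 0.60 between gates. These values rest on fewer fragments and are given without intervals. With 500 bp on each side the promoter level was 1.17, and with the 5′ end of the whole gene as start, chosen after seeing the data, 1.58. Over promoters the summed ratios were −0.039 for CD61, 0.0071 for CD274 and 0.051 for CD27, with intervals that hold 0. With at least 20 fragments 1 of 36 member ratios passed the fold, where 8.7% of all values did. Gates on the centred log ratio gave 0.14. The CD274 ratios of the sites, under alternatives chosen after seeing the data, were 0.23 to 0.33 for Itga2b and 0.03 to 0.25 for Nfe2, where 0.03 is with at least 50 tags and the intervals of both hold 0. Of 520 member log2 ratios under alternatives, 487 stayed within their interval. No paired analysis was possible because each assay has 1 library.

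Low fragment counts set a limit. Ppbp and Gp6 had too few fragments for any split at the main minimum. The MUL gate held 174 fragments over the 9 genes. Counting intervals say nothing of the spread between mice, which 1 pool cannot give, and cells of a group are not replicates. No group of a second age was analysed here.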
